A study of Mus musculus with 2 samples.

Results

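The cells described here are 1940 cells of a newborn mouse lung in which transcripts of the mitochondrial genome made up more than 10% of the unique molecular identifiers (UMIs, the tags that count single captured molecules). They were selected by that share alone, and they were compared with the other 5615 cells of the same animal, at 10% or less, so the cells above the limit were 25.7% of 7555 (exact 95% interval 24.7 to 26.7%). Whole lung of C57BL/6J mice of genotype wt was taken at postnatal day 1 (PND1) from 2 animals, called Batch 1 and Batch 2, and profiled by Drop-seq, a droplet method that captures polyadenylated RNA on barcoded beads. All cells of the comparison came from the Batch 2 mouse, and no treatment was given to either animal. Lungs were minced and dissociated with TrypLE and collagenase at 37°C, strained, treated with red blood cell lysis buffer and settled on ice, so both sides of the comparison passed through 1 dissociation. The series held 9944 cells, of which 2389 were of Batch 1, and 1 Batch 1 cell exceeded the limit. No barcode was shared by the 2 batches.

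The animal is the replicate of such an experiment, and the comparison rests on 1 animal. No test was therefore made, and the 95% intervals given below cover counting error only. They are exact conditional binomial intervals for ratios of counts and Clopper-Pearson intervals for shares of cells. Cells were placed in 4 lineage classes by the class with most UMIs of its marker genes: Epcam for epithelium, Pecam1 or Cdh5 for endothelium, Col1a1 or Col1a2 for mesenchyme, and Ptprc or Tyrobp for immune cells. Levels are UMIs summed over the cells of a side and given per 10000 UMIs that were not mitochondrial, so the transcripts that chose the cells are left out of the denominator. A class-matched level is the unweighted mean of the 4 class levels, and a log2 ratio is that of the cells above over the cells at or below the limit. In all, 1527 cells above and 4746 cells at or below the limit had a class.

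The mitochondrial genome is a small circle that is transcribed from both strands into long precursors, which are cut at the tRNAs into the 12S and 16S ribosomal RNAs (mt-Rnr1 and mt-Rnr2), the messenger RNAs of respiratory chain subunits, and the tRNAs. Its transcripts stay within the organelle and carry short poly(A) tails, and stretches of A inside a transcript can also be captured by oligo(dT) beads. A high mitochondrial share is widely used to set aside droplets whose cells were damaged, because cytoplasmic RNA can leak from a cell while its mitochondria are held back, and the same measure also varies with the number of mitochondria in a cell type. The counted reads were aligned with 1 reported position per read, and the nuclear genome holds old copies of mitochondrial sequence, so a read of a mitochondrial transcript can be placed in a nuclear copy of it.

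Sequences are shown for the transcript that dominates the mitochondrial share and for the nuclear copies whose counts followed it. All are from the GENCODE mouse release 21 transcripts on GRCm38, 5′ to 3′ on the strand of the gene. The first is a stretch of mt-Rnr2 (chrM:1442-1561, plus strand), the 120-base window of the gene with the most bases in runs of A, where capitals mark runs of at least 5 A.
mt-Rnr2: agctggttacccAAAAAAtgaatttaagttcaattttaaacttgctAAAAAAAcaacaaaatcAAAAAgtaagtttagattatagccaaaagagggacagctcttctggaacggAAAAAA

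Over its 1582 bases mt-Rnr2 held 9 such runs, the longest of 7, and 38.2% of its bases were A. By this count it held 5.69 runs per kb, against 5.78 in mt-Nd2, 2.09 in mt-Rnr1 and 0.647 in mt-Co1, so a high density of runs was not particular to it.

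The nuclear copies were found by aligning the longest GENCODE transcript of each gene to the mitochondrial transcripts. Of the 25721 genes counted, 23939 had such a transcript, and the others were not searched. Among the genes searched, only 3 outside the mitochondrial genome had a match of at least 85% identity with an e-value of at most 1e-10. All 3 were measured. Gm20594, a single-exon gene annotated as protein-coding (chr6:79817916-79818364, plus strand), matched mt-Rnr2 at 88.5% over 435 bases. Gm4076, a processed pseudogene (chr13:85126550-85127514, minus strand), matched mt-Nd5 at 95.2% over 954 bases. Gm10222, an unprocessed pseudogene (chr1:24612407-24612700, minus strand), matched mt-Nd4l at 100% over 294 bases. Windows of 120 bases are given for each pair, with capitals at the bases that differ within the pair, of which there were 11 for Gm20594, 6 for Gm4076 and 0 for Gm10222. They lie at chrM:1901-2020 and chr6:79818082-79818201, at chrM:12447-12566 and chr13:85127395-85127514, and at chrM:9877-9996 and chr1:24612581-24612700.
mt-Rnr2: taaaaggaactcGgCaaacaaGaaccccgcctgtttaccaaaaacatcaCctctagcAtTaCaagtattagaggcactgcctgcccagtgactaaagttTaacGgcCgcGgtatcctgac
Gm20594: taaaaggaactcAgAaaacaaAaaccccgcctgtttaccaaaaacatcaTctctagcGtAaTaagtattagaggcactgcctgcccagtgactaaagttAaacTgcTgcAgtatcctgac
mt-Nd5: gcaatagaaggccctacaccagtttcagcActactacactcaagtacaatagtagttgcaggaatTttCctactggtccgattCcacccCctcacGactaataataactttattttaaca
Gm4076: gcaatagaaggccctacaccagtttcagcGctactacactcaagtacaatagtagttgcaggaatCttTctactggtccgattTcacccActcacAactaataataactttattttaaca
mt-Nd4l: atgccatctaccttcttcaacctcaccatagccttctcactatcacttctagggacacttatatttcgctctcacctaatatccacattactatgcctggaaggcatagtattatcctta
Gm10222: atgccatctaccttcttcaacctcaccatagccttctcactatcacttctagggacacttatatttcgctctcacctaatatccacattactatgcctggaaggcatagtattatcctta

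The cells above the limit were present in every lineage. The share was 28.7% of the Epcam class (357 of 1246 cells, interval 26.2 to 31.3%), 21.6% of the Pecam1/Cdh5 class (401 of 1855, 19.8 to 23.6%), 21.8% of the Col1a1/Col1a2 class (549 of 2517, 20.2 to 23.5%) and 33.6% of the Ptprc/Tyrobp class (220 of 655, 30.0 to 37.3%). The endothelial and mesenchymal shares lay within each other's counting error, and both lay below the epithelial and immune shares. Over all cells the distribution of the share fell across the limit, with 483 cells between 9 and 10% and 405 between 10 and 11%. The histograms by lineage show the same in the Epcam, Pecam1/Cdh5 and Col1a1/Col1a2 classes. In the Ptprc/Tyrobp class the counts were 36 and 48, so that class did not fall at the limit. Cells with at least 2 UMIs of 2 classes, which can be doublets, were not enriched beyond counting error, at 29.5% (38 of 129, 21.8 to 38.1%), and no doublet caller was run. Barcodes 1 base from another made up 2.11% of the cells above and 2.21% of the cells at or below the limit.

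**Figure D1:**
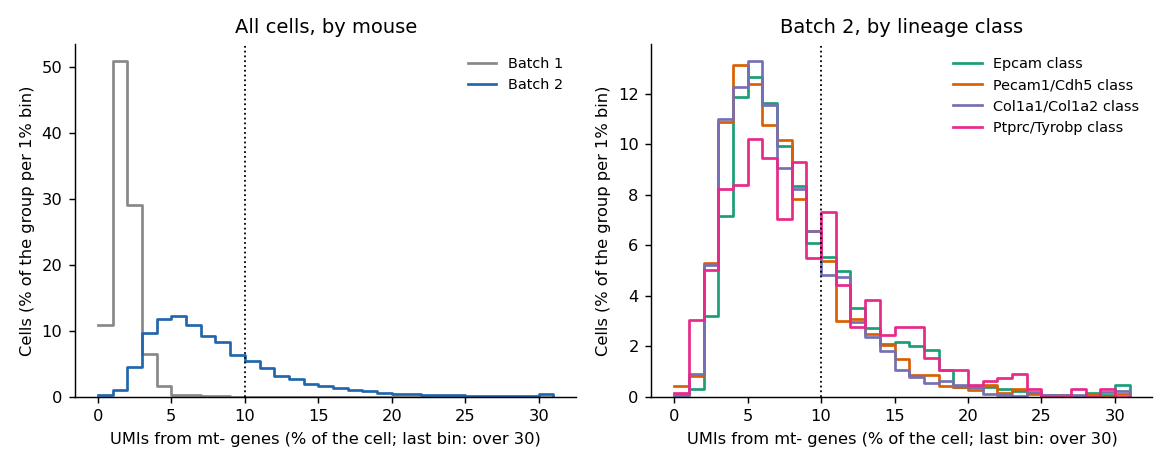
Distribution of the share of UMIs from mitochondrial genes per cell, in bins of 1%, for all cells of each mouse (left) and for the 4 lineage classes of Batch 2 (right); the y axis is the percent of each group's cells and the dotted line is the 10% limit. Batch 1 cells sit around a median of 1.76% and Batch 2 cells around 6.97%, and no class of Batch 2 has its highest bin above the limit.

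Genes that mark each lineage but were not used for the classes followed them on both sides. Summed over 7 endothelial genes (Cldn5, Emcn, Egfl7, Kdr, Tie1, Ramp2 and Esam) the Pecam1/Cdh5 class had 62.3 UMIs per 10000 above and 67.2 at or below the limit, and the other classes 0.7 to 2.7. The 6 immune genes, among them Laptm5, Coro1a and Spi1, summed to 41.4 and 37.3 in the Ptprc/Tyrobp class and to 0.5 to 1.1 elsewhere. The 5 epithelial genes, Cdh1, Krt8, Krt18, Krt19 and Nkx2-1, summed to 15.7 and 18.4 in the Epcam class, and the mesenchymal genes, among them Col3a1, Pdgfra and Dcn, to 58.5 and 65.2 in the Col1a1/Col1a2 class. Cells above the limit that had a class therefore also held other lineage genes of that class. Cells without a class took no part in this check, and 32.2% of them lay above the limit against 24.3% of the cells with one. Loss of lineage genes in those cells was not tested.

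Cells above the limit held fewer other transcripts, most clearly in epithelium. The mitochondrial share has these transcripts in its denominator, so a lower count is in part fixed by the rule. The depths below are therefore a description. The median count of UMIs from non-mitochondrial genes was 3105 above and 4373 at or below the limit in the Epcam class, 1531 and 1960 in the Pecam1/Cdh5 class, 1540 and 1639.5 in the Col1a1/Col1a2 class, and 1642.5 and 1891 in the Ptprc/Tyrobp class. Medians of genes detected per cell were 1366 and 1687, 942 and 1115, 919 and 966, and 960 and 927 in the same order. In the immune class the cells above the limit thus had fewer UMIs and slightly more genes. The median mitochondrial share above the limit ranged from 12.4 to 13.5% over the 4 classes, and that at or below it from 5.68 to 6.03%.

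The mitochondrial RNA of the cells above the limit was ribosomal RNA for the larger part. The rule used these transcripts in sum, so what follows describes the selection. Of the mitochondrial UMIs, 84.8% were rRNA above the limit and 73.8% at or below it, 14.8% and 25.6% came from the 13 protein-coding transcripts, and 0.368% and 0.571% from the tRNAs. In the Epcam class mt-Rnr2 stood at 1354 UMIs per 10000 above and 460 at or below the limit. It stood at 1286 and 422 in the Pecam1/Cdh5 class, 1280 and 436 in the Col1a1/Col1a2 class, and 1511 and 452 in the Ptprc/Tyrobp class. Over all cells the ratio was 3.07 (3.06 to 3.08). That of mt-Rnr1, the other rRNA, was 3.35 (3.25 to 3.44), and by class it ran from 2.48 in the Epcam class to 4.23 in the Ptprc/Tyrobp class.

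The messenger RNAs of the respiratory chain were also higher, by less and unequally. Their sum was 209 above and 150 at or below the limit in the Epcam class, 264 and 166 in the Pecam1/Cdh5 class, 280 and 175 in the Col1a1/Col1a2 class, and 158 and 120 in the Ptprc/Tyrobp class. All 13 were higher above the limit. The subunits of complex I spread furthest, with ratios over all cells of 2.53 for mt-Nd6 (2.39 to 2.67), 2.204 for mt-Nd5 (2.15 to 2.26), 2.01 for mt-Nd4l (1.88 to 2.14), 1.80 for mt-Nd2, 1.58 for mt-Nd3, 1.57 for mt-Nd4 and 1.46 for mt-Nd1. The cytochrome oxidase subunits of complex IV lay lower, at 1.49 for mt-Co1, 1.42 for mt-Co2 and 1.32 for mt-Co3 (1.29 to 1.35), beside 1.43 for mt-Cytb of complex III. The ATP synthase subunits mt-Atp8 and mt-Atp6 had ratios of 1.69 and 1.40. mt-Nd6, with the highest ratio of the 13, is the only one of them encoded on the other strand, and the deposited counts do not show whether the reads of overlapping transcripts on the 2 strands were kept apart.

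**Figure D2:**
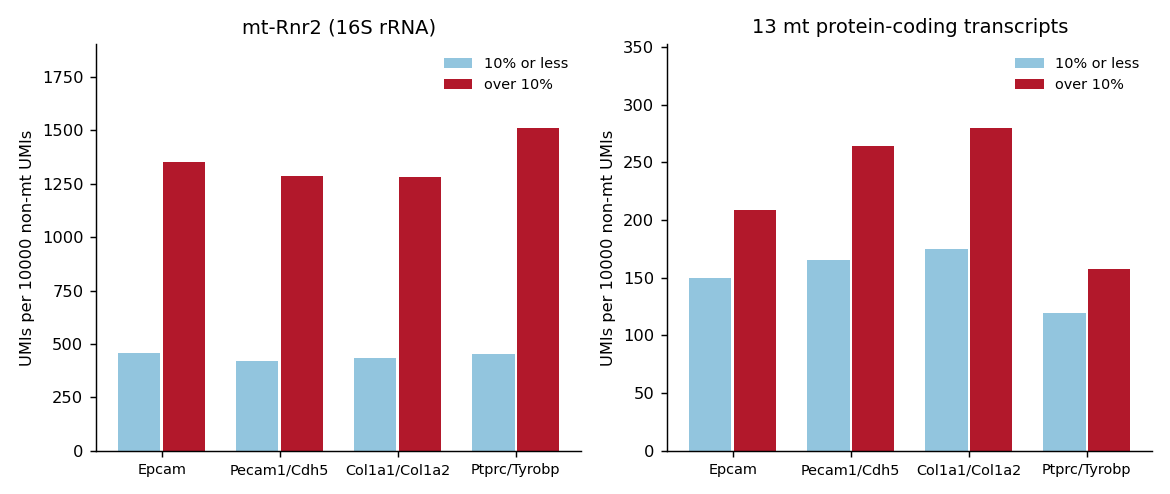
Summed UMIs per 10000 non-mitochondrial UMIs of mt-Rnr2, the 16S rRNA (left), and of the 13 mitochondrial protein-coding transcripts (right), in cells over 10% (red) and at 10% or less (blue) of each lineage class of Batch 2; bars start at 0 and are sums over 1 animal. The rRNA bars differ by 2.94 to 3.34 times in every class and the protein-coding bars by less, the largest sum being 280 in the Col1a1/Col1a2 class.

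Without the 2 rRNAs the limit would have set aside almost no cell. The share of UMIs from the protein-coding transcripts and tRNAs exceeded 10% in 8 of the 7555 cells, and its median was 2.27% in the cells above the limit and 1.57% in the others. When the same number of cells was taken by that share, 1031 of them (53.1%) were cells above the limit. When the cells were ranked by mt-Rnr2 instead, 1819 of 1940 (93.8%) were. Of all cells, 25.7% were above the limit. mt-Rnr2 made up 77.1% of the mitochondrial UMIs of Batch 2, so a close match to its ranking follows in large part from the rule. Membership followed the mitochondrial messenger RNAs more loosely.

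The same transcript set the mice apart. Over all cells mt-Rnr2 stood at 26.2 UMIs per 10000 non-mitochondrial UMIs in Batch 1 and 631 in Batch 2, 24.1 times as many, and mt-Rnr1 at 1.25 and 9.13. Among the messengers mt-Co1 stood at 35.7 and 36.4, mt-Atp6 at 20.3 and 19.96, mt-Nd5 at 7.73 and 14.7 and mt-Atp8 at 0.83 and 1.91, so some were level between the mice and others were higher in Batch 2. The median share of the protein-coding transcripts was 1.46% in Batch 1 and 1.58% in Batch 2. Malat1, a nuclear noncoding RNA, stood at 153 and 350. Batch 2 was also deeper, with medians of 1999 and 1387 UMIs per cell and totals of 23263012 and 4434206. Mouse and batch cannot be told apart here, and each batch is 1 animal.

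Outside the mitochondrial genome the 2 sides were close once lineage was matched. Of 3528 genes with an average class-matched level of at least 0.5 UMIs per 10000, 95.6% (3372) lay within 1.5-fold, and the median log2 ratio was 0.07. At least 2-fold higher above the limit were 15 genes (0.425% of the genes measured), and 33 were at least 2-fold lower (0.935%). The log2 ratio had the same sign in all 4 classes for 1221 genes, 806 of them higher and 415 lower, and 11 of the 15 and 6 of the 33 were among those. The spread of the ratios against level, with the ribosomal protein genes marked, shows that most of the genes past 2-fold were on the low side.

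**Figure D3:**
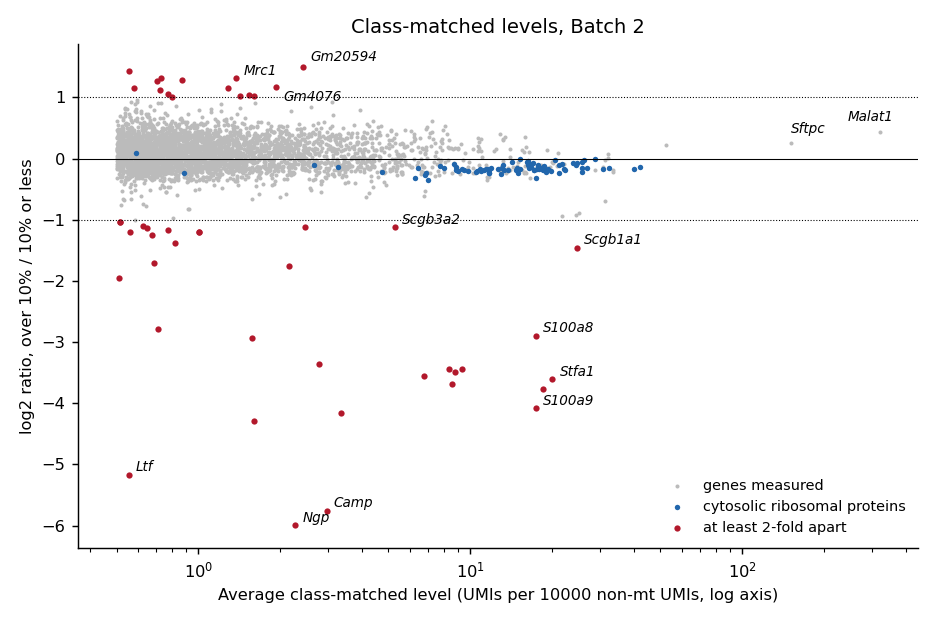
Class-matched log2 ratio (cells over 10% over cells at 10% or less) against the average class-matched level in UMIs per 10000 non-mitochondrial UMIs (log axis) for the 3528 genes measured; each point is a gene, blue marks cytosolic ribosomal proteins, red marks genes at least 2-fold apart, and dotted lines mark 2-fold. The neutrophil genes reach a log2 ratio of -5.99, while Gm20594 is highest at 1.50.

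The nuclear copies of mitochondrial sequence were higher above the limit. Gm20594, the mt-Rnr2 copy shown above and the gene with the highest matched log2 ratio of those measured, had a matched level of 3.596 against 1.27. It stood at 3.74 and 1.42 in the Epcam class, 3.35 and 1.18 in the Pecam1/Cdh5 class, 3.18 and 1.25 in the Col1a1/Col1a2 class and 4.10 and 1.24 in the Ptprc/Tyrobp class. The ratio was thus 2.64 (2.36 to 2.94), 2.84 (2.45 to 3.30), 2.55 (2.204 to 2.95) and 3.31 (2.61 to 4.20), and in each class it lay near that of mt-Rnr2, which ran from 2.94 to 3.34. Gm4076, the mt-Nd5 copy, stood at 2.68 against 1.19, with class ratios of 2.25, 2.27, 2.40 and 1.91, beside 2.15, 2.21, 2.28 and 1.46 for mt-Nd5 itself. Gm10222, the mt-Nd4l copy, had a log2 ratio of 0.93 and class ratios of 2.04, 1.80, 2.04 and 1.60. The counts of these 3 genes are uncertain, because reads of the mitochondrial transcripts may have been placed in them, and they summed to 0.730% of the mitochondrial UMIs. They were not removed by a filter on gene names that start with mt-.

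Several predicted transcripts were higher in every class. Gm26809 had a log2 ratio of 1.15, with 4.16 against 1.61 in the Epcam class, 0.402 against 0.192 in the Pecam1/Cdh5 class, 1.88 against 0.95 in the Col1a1/Col1a2 class and 0.648 against 0.434 in the Ptprc/Tyrobp class. Gm20721 had 1.02, with class ratios of 2.10, 1.82, 2.07 and 2.00. Gm10800 and Gm20417 had 1.26 and 1.01, and Gm26669, below 2-fold, had 0.79. Of known genes below 2-fold, Nfia, a transcription factor of the nuclear factor I family, had 0.78, with class ratios of 1.57, 1.72, 1.76 and 1.46. Tead1, a transcription factor of the Hippo pathway, had 0.62. Gm26669, Nfia and Tead1 were named after their values were seen.

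Noncoding RNAs that stay in the nucleus were higher above the limit. All 5 measured members of that list had a log2 ratio above 0, from 0.08 to 0.44, with a median of 0.31 beside 0.07 for all genes, and none reached 2-fold. Malat1, a nuclear speckle RNA, stood at 563 against 394 in the Epcam class, 282 against 210 in the Pecam1/Cdh5 class, 438 against 355 in the Col1a1/Col1a2 class and 200 against 137 in the Ptprc/Tyrobp class, ratios of 1.43 (1.42 to 1.44), 1.34, 1.23 and 1.46. It was higher in all 4. Neat1, the RNA of paraspeckles, had a log2 ratio of 0.12, with class ratios of 0.94, 1.17, 1.95 and 1.16. Xist, which coats the inactive X chromosome, had 0.08 with class ratios of 1.05 to 1.10, so the members differed in size. Genes of the spliceosome and nuclear RNA binding had a median of 0.14, and 25 of 31 lay above 0, beside 2138 of all 3528 genes, among them the splicing scaffold genes Srrm2 (0.28) and Son (0.17). Neither list was matched for transcript length. The 521 measured genes with a longest annotated transcript of 6 kb or more had a matched median of 0.30, and 480 lay above 0. A difference particular to nuclear RNA, apart from length, was not tested.

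Genes of the cytosolic ribosome were slightly and evenly lower above the limit. Of 88 listed, 83 were measured, and 82 of these had a log2 ratio below 0 and 1 above it, with a range of -0.34 to 0.09 and a median of -0.17. None reached 2-fold. Their summed matched level was 1248 against 1383. The class medians were -0.19 in the Epcam class, -0.20 in the Pecam1/Cdh5 class, -0.22 in the Col1a1/Col1a2 class and -0.04 in the Ptprc/Tyrobp class, beside medians over all genes of 0.02, 0.04, 0.03 and 0.19. The immune class therefore stood higher for genes in general, and its ribosomal median lay below its own median gene by about as much as in the others. The 386 measured genes with a longest annotated transcript under 1 kb, which can include ribosomal protein genes, had a matched median of -0.15. Their class medians were -0.19, -0.19, -0.18 and -0.03. These short genes can also include processed pseudogenes, and no median was computed without them and the ribosomal protein genes. The ribosomal values therefore lay near those of a set that can contain them. Whether they differ from other short transcripts was not tested. Translation factors had a median of -0.10 over 26 genes.

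Nuclear genes that serve the mitochondrion were not higher in step with the mitochondrial transcripts. The 75 measured subunits of the respiratory chain and ATP synthase encoded in the nucleus had a median of -0.09, and 7 lay above 0. By class the median was -0.21, -0.16, -0.15 and 0.07 in the order used above. The 26 measured mitochondrial ribosomal proteins had -0.12, the 7 measured mitochondrial chaperones and proteases 0.03, and only 2 of 23 genes of mitochondrial gene expression were measured, at a median of -0.07. Genes of mitophagy and autophagy had 0.02 over 17 genes. In these lists no gene reached 2-fold in either direction.

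Stress lists lay near the median gene, most of them below it. Heat shock genes had a median of -0.10 over 6 measured genes, immediate early genes, which are often induced by dissociation, -0.10 over 24, with Ier2 at -0.56 and Zfp36l1 at 0.53, and genes of the integrated stress response 0.04 over 8. Apoptosis genes and p53 targets had -0.00 over 9, antioxidant genes -0.08 over 18, and actin genes -0.04 over 23. ER chaperones, which fold secreted proteins, lay at 0.14 over 13 with 11 above 0, for example Hspa5 at 0.12 and Canx at 0.35. Glycolysis and hypoxia genes lay at -0.21 over 11, with Gapdh at -0.54 and Pgk1 at -0.40. No gene of these lists was 2-fold apart, and the median of all genes was 0.07. Extracellular matrix genes had 0.19 over 22 with 18 above 0, led by Postn, the matrix protein periostin, at 0.67.

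Genes of neutrophils were among the lower genes. The list of immunoglobulin and granule genes, called the granule list here, had 10 members, of which 7 were measured. All 7 were at least 2-fold lower, with a median of -4.08, beside 0.935% of all genes measured. Some reached the minimum average level of 0.5 only through the cells at or below the limit. Matched levels above and at or below it were 0.070 and 4.48 for Ngp, 0.108 and 5.82 for Camp, and 0.030 and 1.08 for Ltf. Such genes could only be counted as lower, so the count is a description. Ngp, neutrophilic granule protein, stood at 0.216 above and 17.8 at or below the limit in the Ptprc/Tyrobp class (9 and 1802 UMIs), and below 0.2 on both sides of the other classes. Camp, the cathelicidin, stood at 0.264 and 22.9, and Ltf, lactoferrin, at 0.072 and 4.27. S100a9, a subunit of the calcium-binding dimer calprotectin, stood at 5.54 and 129, a ratio of 23.3 (20.4 to 26.6) between the sides, and S100a8, its partner, at 15.1 and 121. The neutrophil chemokine receptor Cxcr2 stood at 0.648 and 3.14. The stefin A genes Stfa1, Stfa2 and Stfa3, with matched log2 ratios of -3.61, -3.45 and -4.16, belong to a family of near-identical copies, so their separate counts are uncertain.

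Within the Ptprc/Tyrobp class the cells richest in these transcripts were in smaller part above the limit. Of 124 cells with at least 10 UMIs of the neutrophil list (S100a8, S100a9, Retnlg and Cxcr2), 13 lay above it, 10.5% (5.70 to 17.3%), against 39.0% (34.8 to 43.3%) of the other 531. Their median depth was 1834 UMIs against 1809, so these cells were no deeper. With at least 2 UMIs the shares were 31.3% of 304 and 35.6% of 351. Their mitochondrial messengers were low as well, with a median of 0.57% of UMIs in the cells with at least 10 against 1.18% in the rest. The summed neutrophil list ran from 22.9 above to 273 at or below the limit in this class and from 0.4 to 2.3 elsewhere.

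With the 304 neutrophil-list cells left out, also chosen after the values were seen, 125 immune cells lay above and 226 at or below the limit. The levels of S100a8, S100a9, Retnlg and Cxcr2 in that set are fixed by the filter, which uses these genes. In it 197 genes were at least 2-fold higher (6.07% of 3243) and 117 lower (3.61%), beside 146 higher (4.66% of 3131) and 87 lower (2.78%) in the whole class, where the totals behind the levels were 416606 and 1014947 UMIs, the smallest of the 4 classes. The number of genes past 2-fold was thus no smaller without those cells. Other lower genes of the whole class were Mcpt8, a protease of basophils (0.0240 against 3.29, 1 and 334 UMIs), and Gzma and Ccl5, made by cytotoxic lymphocytes (0.240 against 2.97 and 0.288 against 2.56). Of 23 cells with at least 2 UMIs of the T cell list, 3 lay above the limit (13.04%, 2.78 to 33.6%), which overlaps the 34.3% of the other immune cells within counting error.

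The macrophage list was split. Of its 4 genes, Mrc1 and C1qc were higher above the limit in matched level and C1qa and C1qb were not, with a median log2 ratio of 0.12 beside 0.07 for all genes. The complement genes stood at 0.519 above against 0.549 (C1qa), 0.936 against 0.978 (C1qb) and 1.09 against 0.884 (C1qc). In the immune class Mrc1, the mannose receptor, stood at 7.39 against 2.99 (ratio 2.48, 2.11 to 2.91), the cytokine gene Il18 at 3.19 against 1.14, and Ap1s2, a subunit of a clathrin adaptor, at 7.03 against 3.03. Ear2, March1, Abcg1, which exports cholesterol, and Cybb, the oxidase subunit of phagocytes, had matched log2 ratios of 1.32, 1.16, 1.06 and 1.02. March1 and Abcg1 were higher in all 4 classes, and Ear2 and Cybb were not. In the Pecam1/Cdh5 and Col1a1/Col1a2 classes Ear2 had -0.83 and -0.19, and Cybb 0.03 and -0.18. In the immune class they had 1.34 and 1.05. Of 155 cells with at least 2 UMIs of the macrophage list (C1qa, C1qb, C1qc and Mrc1), 47.1% lay above the limit (39.0 to 55.3%) against 29.4% of the rest (25.4 to 33.6%). At 10 UMIs or more the shares were 30.9% of 55 and 33.8%, so the order did not hold for the cells richest in these genes. Within the 155 cells Mrc1 stood at 17.2 against 13.1, nearer than in the whole class. The list that picked these cells contains Mrc1, so this level and the shares above the limit are shaped by the filter.

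In the Epcam class genes of the club and ciliated lists were among the lower genes. Of 3107 genes measured there, 8 were at least 2-fold higher (0.257%) and 37 lower (1.19%). Scgb1a1, the secretoglobin of club cells, stood at 31.7 above and 133 at or below the limit, Scgb3a2, another secretoglobin, at 5.25 and 27.2, and Cyp2f2, a cytochrome P450 of club cells, at 0.998 and 3.98. Haptoglobin (Hp) stood at 1.25 and 6.66. Other lower genes included Foxj1, the transcription factor of ciliated cells (0.338 and 1.27), Ccdc153 (0.338 and 1.22), Dynlrb2, a dynein light chain (0.844 and 2.72), and the tubulins Tubb4b and Tuba1a (0.822 and 2.16, 0.888 and 2.19). The ciliary genes and tubulins were named after their values were seen, and the tubulins share long stretches with other members of their family.

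Cells rich in the airway lists lay above the limit in a smaller share, and so did cells rich in general epithelial genes. Of 95 Epcam-class cells with at least 10 UMIs of the club list (Scgb1a1, Scgb3a2, Cyp2f2 and Hp), 15.8% lay above it (9.12 to 24.7%), against 29.7% of the others (27.1 to 32.5%). Of 71 with at least 10 UMIs of the ciliated list, 15.5% did (11 cells). These cells were deep, with a median of 9589 UMIs in the club-list cells against 3675 in the rest, so a minimum of 10 UMIs also selects for depth. With the general epithelial list at the same minimum the share was 15.5% of 367 (11.98 to 19.6%) against 34.1% of the rest, so the low share was not particular to airway cells. At 2 UMIs the club shares were 24.5% (20.9 to 28.4%) and 31.7% (28.3 to 35.3%). With both sets left out, a split chosen after the values were seen, 334 cells above and 794 at or below the limit remained, 7 genes were at least 2-fold higher (0.233% of 2999) and 0 were lower (0%). The filter uses the club and ciliated genes, so their absence from that count is fixed by it, and genes that no longer reached the minimum level were not counted. The alveolar genes of the class were as high or higher above the limit in the whole class: Sftpc, surfactant protein C of type 2 cells, stood at 561 against 438, and Ager, a gene of type 1 cells, at 15.0 against 13.5. With the club-list and ciliated-list cells left out, Sftpc stood at 603 against 586, so the 2 sides lay closer.

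The secretoglobins moved the other way outside epithelium. Scgb3a2 stood at 0.690 against 0.346 in the Pecam1/Cdh5 class, 4.26 against 0.810 in the Col1a1/Col1a2 class and 3.05 against 0.591 in the Ptprc/Tyrobp class, and Scgb1a1 at 3.34 against 2.77, 7.74 against 5.08 and 9.91 against 3.67. These classes should lack both genes, and RNA free in the suspension can enter any droplet. Sftpc, which should also be absent there, did not share the pattern, at 25.8 against 22.9, 44.1 against 43.5 and 24.7 against 48.2. The part of free RNA and of mixed droplets in these levels was not tested.

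Hemoglobin transcripts, which in lung cells come from erythroid cells or their free RNA, were lower above the limit in 3 classes and not in epithelium. Hba-a1 stood at 17.8 against 43.2 in the Pecam1/Cdh5 class (ratio 0.41, 0.39 to 0.44), 27.5 against 42.2 in the Col1a1/Col1a2 class, 15.4 against 35.5 in the Ptprc/Tyrobp class and 9.56 against 9.16 in the Epcam class. Hbb-bs followed it, with ratios of 0.49, 0.68, 0.52 and 1.30. All 4 measured members of the hemoglobin and erythroid list were lower in matched level, with a median of -0.91, and none passed 2-fold. Counts of Hba-a1 and its near-identical neighbour Hba-a2 are uncertain one by one.

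In the Pecam1/Cdh5 class 12 genes were at least 2-fold higher (0.34%) and 5 lower (0.142%), and 4 of those 5 were hemoglobins. Mmrn1, a multimerin of lymphatic endothelium, was among the higher genes (0.929 against 0.337), and the summed lymphatic list stood at 4.58 against 3.17. Cells with at least 2 UMIs of that list lay above the limit in 14.0% of 121 (8.40 to 21.5%) against 22.1% of the others (20.2 to 24.2%), intervals that overlap, and with at least 10 UMIs in 8 of 32 (11.5 to 43.4%) against 21.6%. The linker histone genes Hist1h1e and Hist1h1d were higher as well (2.21 against 1.01, and 1.37 against 0.600). In the Col1a1/Col1a2 class 13 genes were higher (0.378%) and 4 lower (0.116%). The lower ones were the histone genes Hist1h2ao and Hist1h2ap (0.315 against 1.05, and 0.376 against 1.01), the microfibril gene Mfap5 and the matrix gene Tgfbi (6.21 against 12.5). The higher ones included Notch2, a Notch receptor, at 0.956 against 0.416. Cells with at least 2 UMIs of the pericyte list lay above the limit in 26.6% of 376 (22.2 to 31.4%) against 20.97% of the rest (19.3 to 22.8%), which overlap as well.

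Genes of dividing cells were lower above the limit. All 8 measured members of the cell cycle list had a negative log2 ratio, with a median of -0.50, and 1 of them, Top2a, the topoisomerase of dividing cells, was at least 2-fold lower at -1.13. Top2a stood at 0.154 against 0.683 in the Epcam class, 0.728 against 0.757 in the Pecam1/Cdh5 class, 0.234 against 0.483 in the Col1a1/Col1a2 class and 0.504 against 1.64 in the Ptprc/Tyrobp class. Replication-dependent histone genes of the H2A family were lower in 3 classes and level in epithelium, for example Hist1h2ap with class ratios of 0.98, 0.60, 0.37 and 0.22. These histone genes are near-identical and are counted here only as their shared signal allows.

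The ratio of a gene followed the length of its transcript. Over the 3371 measured genes with a GENCODE transcript, Spearman's rank correlation between the matched log2 ratio and the length of the longest annotated transcript was 0.57, a description across genes that share cells and libraries. Of 386 genes with a transcript under 1 kb the median log2 ratio was -0.15 and 17.1% lay above 0. From 1 to 2 kb it was -0.07 (33.0% of 610), from 2 to 4 kb 0.06 (62.5% of 1134), from 4 to 6 kb 0.19 (82.6% of 720), and from 6 kb upward 0.30 (92.1% of 521). Longer transcripts were thus higher above the limit step by step.

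The same order was met in every class. The rank correlation was 0.42 in the Epcam class, 0.49 in the Pecam1/Cdh5 class, 0.45 in the Col1a1/Col1a2 class and 0.31 in the Ptprc/Tyrobp class. It was 0.56 without the cytosolic ribosomal proteins, whose transcripts are short, and 0.69 over the 816 genes with a level of at least 2. GC content had a rank correlation of -0.31 and the number of runs of at least 8 A in the transcript 0.35, but both are themselves related to length (-0.36 and 0.50). In genes without such a run the medians over the same 5 length bins were -0.15, -0.08, 0.04, 0.15 and 0.29, and in genes with one -0.16, -0.00, 0.11, 0.21 and 0.30, so length went with the ratio whether or not a run was present. Such a run was found in 39.2% of the measured transcripts and in 26.1% of all transcripts matched. The 91 measured processed pseudogenes, which are short, had a median of -0.17, and 10 lay above 0.

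**Figure D4:**
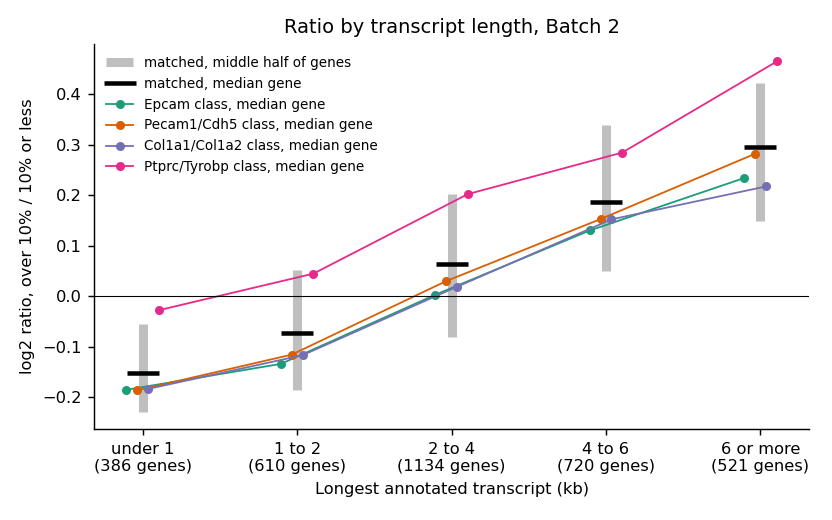
Median log2 ratio of gene levels (cells over 10% over cells at 10% or less) in 5 bins of longest annotated transcript length in kb; black dashes are the class-matched median, grey bars the middle 50% of genes, and coloured points the median gene within each lineage class. All 4 classes climb from the shortest to the longest bin, the matched median from -0.15 to 0.30, and the Ptprc/Tyrobp class lies above the other 3 throughout.

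The limit lay on a gradient. Over the bins 0 to 2.5, 2.5 to 5, 5 to 10, 10 to 20 and 20 to 40% of mitochondrial UMIs, with 211, 1851, 3553, 1743 and 191 cells, mt-Rnr2 had matched levels of 105, 263, 587, 1257 and 2728, which is the selected quantity itself. Gm20594, which may hold reads of mt-Rnr2, followed at 0.40, 0.83, 1.63, 3.29 and 7.50 and Malat1 at 181, 243, 301, 359 and 548. Both stood higher in every bin than in the one before, below the limit as well as above it. The mitochondrial messengers went from 82.2 to 360.

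The ribosomal proteins did not follow a line, with 1066, 1461, 1390, 1265 and 1000, highest between 2.5 and 5%. Hemoglobins fell over the bins below the limit, at 573, 146 and 71.8, and stood at 72.9 and 87.2 in the bins above it. The neutrophil list went from 332 over 58.2, 28.0 and 7.06 to 3.91. Scgb1a1 stood at 74.1, 44.2, 29.4, 12.5 and 23.7. The lowest and highest bins hold as few as 20 and 24 cells in a class. Just inside and just outside the limit, at 10 to 11% and 9 to 10%, the levels were 963 and 843 for mt-Rnr2, 2.64 and 2.09 for Gm20594, 336 and 335 for Malat1, and 1315 and 1330 for the ribosomal proteins.

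**Figure D5:**
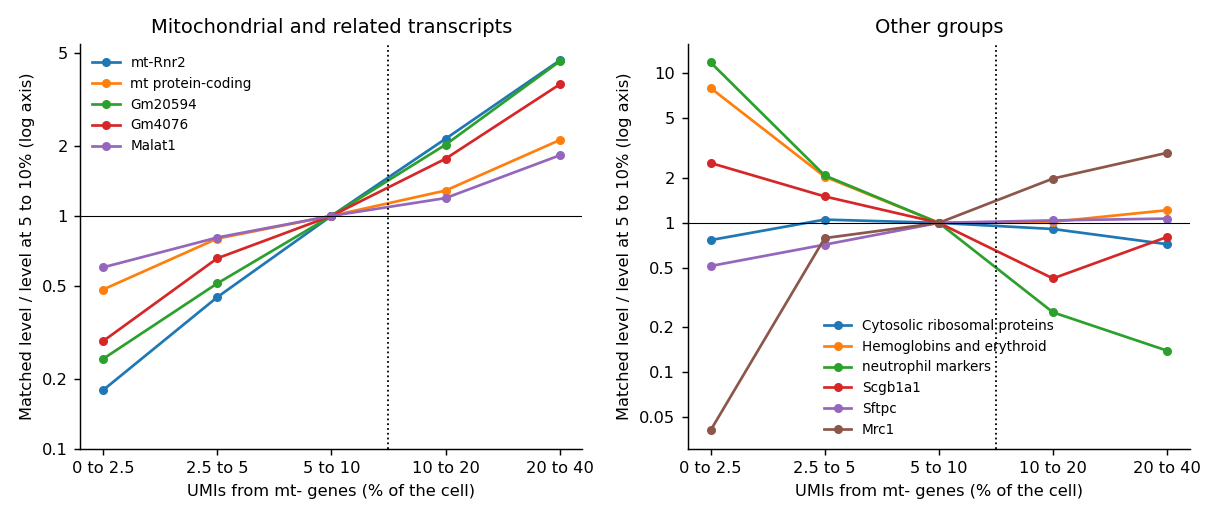
Class-matched levels in bins of the mitochondrial share of the cell, relative to the level at 5 to 10% (log axis), for mitochondrial and related transcripts (left) and other groups (right); the dotted line is the 10% limit and each point is a sum over cells of 1 animal. mt-Rnr2, Gm20594 and Malat1 are higher in each bin than in the one before, while the neutrophil markers go from 332 to 3.91 UMIs per 10000.

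The other mouse allowed the same gradient to be looked at in cells that did not enter the rule. In Batch 1 the upper 25.7% of the cells of each class by mt-Rnr2 (518 cells, median share 0.507%) were set against the remaining 1501 (0.132%), all but 1 of the batch's cells lying under the limit. The matched log2 ratio of Malat1 was 0.65 and of the median ribosomal protein gene -0.19, and the rank correlation with transcript length was 0.38 over 3087 genes. That of Gm20594 was 1.91, but reads of mt-Rnr2 may be counted in this copy. Its ratio under any ranking that uses mt-Rnr2 is therefore no separate observation. The log2 ratios of the 2 mice under this split had a rank correlation of 0.50 over 2919 genes. When the Batch 1 cells were split by all mitochondrial UMIs, the quantity of the 10% rule, Gm20594 was at 1.11, Malat1 at 0.10 and the median ribosomal protein gene at -0.09, the rank correlation with length was 0.20 over 3093 genes, and the rank correlation between the mice was 0.21 over 2902 genes. The match between the mice was thus weaker by the quantity that chose the cells than by mt-Rnr2. Both splits rest on the same kind of count, and each mouse is 1 animal.

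The result depended on which mitochondrial transcripts ranked the cells. With the protein-coding transcripts as the ranking, the rank correlation with length was 0.12 in Batch 1 and 0.14 in Batch 2, where the mt-Rnr2 ranking gave 0.57. The median ribosomal protein gene was then at -0.05 and -0.03, and Malat1 at -0.02 and 0.04. The gradient in length and in Malat1 therefore went with the 16S rRNA more than with the mitochondrial messengers in each mouse.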

How the data were processed

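Single-cell suspensions of whole lung of 2 PND1 mice were profiled by Drop-seq. The authors deposited 1 table of raw counts of UMIs per gene and cell for each mouse, and the tables hold whole numbers. According to the submitters' processing notes and the methods of the study, reads were aligned to mm10 with Bowtie2 (version 2.2.7) with 1 reported alignment per read. The annotation used for counting is not given in the sources used here. Every deposited cell had at least 500 genes, and cells above the 10% limit, which the study removed, were still in the tables (8003 cells of both mice lay at or below it). Per-sample columns left unused numbered 0.

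Sums and ratios were computed in Python 3.11.15 with numpy 2.4.6, pandas 2.3.3 and scipy 1.17.1, and transcripts were aligned with BLAST+ 2.17.0. The scripts were checked on simulated counts with known changes. Genes with an average class-matched level of at least 0.5 UMIs per 10000 were measured, and at least 2-fold was the call. With 1 mouse there was no test. The 22 gene lists, the marker lists and the cells themselves were chosen with earlier results of these data known. Genes were named by size: up to 15 per direction with a matched ratio of at least 2-fold and the same sign in 4 classes, the 4 largest per direction in each class, the class and mitochondrial genes, and the highest and most different members of each list. The other genes past 2-fold named in the text, Gm26669, Nfia, Tead1, Xist, the stefin A genes, the ciliary genes, Mcpt8, Gzma, Ccl5, Mmrn1, Notch2, the linker histones, Gm10222, Srrm2, Son, Hspa5, Canx and Pgk1, were chosen after their values were seen. Alternatives covered the limit, the classes, the weighting, depth, totals and level filter.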

Additional observations from a re-analysis of the deposited data

Results flagged for a closer look

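Cells without a lineage class took no part in the matched comparison, and 32.2% of them (413 of 1282, 29.7 to 34.9%) lay above the limit, beside 24.3% of the cells with a class. Of the 1282, 1132 had no UMI of the 7 class genes and 150 were ties. Their median depth was 1401 non-mitochondrial UMIs above and 1579 at or below the limit. mt-Rnr2 stood at 1513 against 469 UMIs per 10000 in them, Gm20594 at 4.37 against 1.35, Malat1 at 589 against 410, the summed cytosolic ribosomal proteins at 1173 against 1341, and the hemoglobins at 69.9 against 499.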

How the results depend on the processing

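No paired analysis was possible because both sides of the comparison are cells of 1 mouse, and leaving out a replicate has no meaning for the same reason. No interval here covers variation between animals, and levels of genes near 0.5 UMIs per 10000 rest on few UMIs in the immune class. The causes of the shifts below were not tested.

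A limit of 5% put 5493 cells above it, with shares of 77.4, 69.4, 70.5 and 75.1% in the Epcam, Pecam1/Cdh5, Col1a1/Col1a2 and Ptprc/Tyrobp classes and a ribosomal protein median of -0.0416. A limit of 20% put 197 cells above, with shares of 2.33, 1.62, 1.55 and 3.66%, 180 genes higher and 86 lower, a ribosomal median of -0.47 and Scgb3a2 at 1.27. Without the 2 rRNAs in the share the limit held 8 cells, with shares of 0.0803, 0.0539, 0.0397 and 0%, and gave no matched values. Cells over 10% against those at 5% or less gave 55 higher and 52 lower genes. Counts were 8 and 20 with the mean over cells, 1 and 17 at levels of at least 2 (rank correlation with length 0.69), and 51 and 104 at levels of at least 0.1 (rank correlation 0.41), while weighting classes by their cells gave 7 higher. Thinning each cell to 400 UMIs gave a rank correlation of 0.48. The ribosomal median was -0.13 with stricter classes, -0.19 with the mean over cells, the weighting or without free RNA genes in the totals, and -0.24 after centring on the median gene. Without cells of 10 subtype lists, 31 cells above and 110 at or below the limit were left, with shares of 32, 12.5 and 40% in the Epcam, Col1a1/Col1a2 and Ptprc/Tyrobp classes, too few for matched values.

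The remaining alternatives were chosen after seeing the data. Ranking cells by mitochondrial protein-coding transcripts gave a rank correlation of 0.13 and a ribosomal median of -0.0283, and turned the medians of the nuclear-encoded respiratory chain (0.0654), mitochondrial ribosomal proteins (0.17) and cell cycle (0.16), and 4930506M07Rik (-0.26), Cyp2f2 (0.36), Hist1h2ao (0.10), Hist1h2ap (0.13), Il18 (-0.16), Mrc1 (-0.20), Scgb1a1 (0.61), Scgb3a2 (0.61) and Top2a (0.64). Without the neutrophil-list cells 21 genes were lower, the ribosomal median was -0.23, and the granule list (0.56), 1100001G20Rik (1.07), Ltf (1.62), S100a8 (0.56), S100a9 (0.27), Stfa1 (0.15), Stfa2 (0.37) and Stfa3 (0.33) turned, where the filter itself uses S100a8 and S100a9. Without cells of 8 subtype lists the immune share was 38.4%, 7 genes were higher and 13 lower, the ribosomal median was -0.22, and the granule list (0.44), 1100001G20Rik (0.81), Camp (0.22), Ltf (1.44), S100a8 (0.44), S100a9 (0.27), Scgb3a2 (0.11), Stfa1 (0.0156) and Stfa2 (0.11) turned. Cells of 5 to 10% against 5% or less, all at or below the limit, gave 4 higher genes, a rank correlation of 0.46, a ribosomal median of 0.00326 and a translation factor median of 0.0300. Of 436 list medians under all alternatives, 377 moved little, 52 moved and 7 turned, and of 2428 values of named genes these numbers were 1645, 758 and 25.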
